A study of Homo sapiens with 9 samples.

Results

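The zinc finger cluster of the long arm of chromosome 19, from ZNF577 to ZNF331 (bands 19q13.41 and 19q13.42), was followed through 3 states of the human cell line HL-60, which grew out of an acute leukaemia with promyelocyte-like cells. Its members are 35 zinc finger genes, picked by symbol and taken in chromosomal order. Of these, 24 have a row in the deposited table of 20637 genes. The other 11 (ZNF578, ZNF808, ZNF701, ZNF611, ZNF600, ZNF816, ZNF160, ZNF415, ZNF665, ZNF677 and ZNF845) were not analysed here. The cluster was proposed with earlier results of these data in view, in which zinc finger genes were low in daunorubicin-resistant cells. Differences of members between the groups are therefore descriptions, with no p-value, and support nothing by themselves. HRD cells are HL-60 cells that tolerate daunorubicin (DNR), one of the anthracyclines, which poison topoisomerase II, and were grown in 30 nM of it. HRA cells are HL-60 cells that tolerate cytarabine (Ara-C), a nucleoside drug that stops DNA synthesis, and were grown in 100 nM of it. Parental HL-60 cells are the third group. Each group had 3 biological replicates, so 9 libraries of polyadenylated RNA were compared. The design does not part resistance from exposure to the drug, and the labels name a single resistant line per drug.

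Libraries held 20822709 to 66563328 reads, and no library of a group repeated another. Transcripts of the primary granule enzyme MPO averaged 232664, 264812 and 295528 normalized reads in HRD, HRA and parental cells, and the surface marker CD33 averaged 2528, 3046 and 2478. Of 6 tested genes of the promyelocyte list, CTSG, a granule protease, was called lower in both resistant lines, at 6728 ± 282 in HRD, 4120 ± 299 in HRA and 10855 ± 1160 in parental cells (SD, n = 3). PRTN3, another granule protease, was called lower and CD33 higher in HRA, and both calls were lost in some alternative fits. The granule protease ELANE stayed between 0 and 4.06 normalized reads in every library. Marker genes of other cell types were low. The 3 T cell genes summed to 2.14 to 3.01 normalized reads in HRD, 11.0 to 31.1 in HRA and 18.0 to 18.4 in parental libraries. Of 3 B cell genes, 2 had a row and summed to 1.51 to 6.45, 23.1 to 40.6 and 8.99 to 19.6 in the same order of groups, almost all of it CD79A, and MS4A1 had 1 read in all 9 libraries. CD79A was called lower in HRD than in parental cells (−1.60 ± 0.47, limma adjusted p = 0.0304), a call lost in some alternative fits. It was also called lower in HRD than in HRA (−2.71 ± 0.47, limma adjusted p = 0.00165). In HRD, HRA and parental libraries, the 2 epithelial genes with a row summed to 3.21 to 10.5, 0 and 0 to 4.91, from KRT18 and a few reads of CDH1. The fibroblast and erythroid genes with a row had at most 1 or 2 reads in any library. The part of these sums in the results was not tested.

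Proteins of this family carry rows of zinc fingers that read DNA, and most also carry a KRAB domain. The KRAB domain recruits the corepressor TRIM28, which brings in the histone methyltransferase SETDB1 and heterochromatin protein, and so lays down repressive chromatin, chiefly over transposable elements. The genes arose by tandem duplication and lie side by side, many of them on chromosome 19, and their own promoters are often rich in CpG sites.

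The RefSeq promoter windows (250 bases before to 50 after the start, assembly GRCh38.p14) of the members whose levels differ most are printed here beside those of members that kept theirs. Each runs 5′ to 3′ on the strand of the gene, and every CpG site is in capitals. ZNF577 (chr19:51887902-51888201, minus strand) and ZNF614 (chr19:52028330-52028629, minus strand) had no read in HRD cells. ZNF331 (chr19:53554363-53554662, plus strand, the most CpG-rich of its 6 windows) and ZNF83 (chr19:52690447-52690746, minus strand, the more CpG-rich of 2) were reduced there. ZNF616 (chr19:52139889-52140188, minus strand) and ZNF766 (chr19:52269337-52269636, plus strand) kept most or all of their level. The bases just after the start in the ZNF616 window were in no transcript of that gene in the GENCODE v29 annotation, unlike those of the other windows printed. RefSeq windows were not used for ZNF649, ZNF480, ZNF610 and ZNF28.
ZNF577: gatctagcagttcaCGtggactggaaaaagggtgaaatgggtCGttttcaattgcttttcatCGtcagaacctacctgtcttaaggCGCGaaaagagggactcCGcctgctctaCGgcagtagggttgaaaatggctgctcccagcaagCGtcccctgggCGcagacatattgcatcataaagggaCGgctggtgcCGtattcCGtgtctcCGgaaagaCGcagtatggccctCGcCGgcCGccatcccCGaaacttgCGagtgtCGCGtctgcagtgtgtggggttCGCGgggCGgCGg
ZNF614: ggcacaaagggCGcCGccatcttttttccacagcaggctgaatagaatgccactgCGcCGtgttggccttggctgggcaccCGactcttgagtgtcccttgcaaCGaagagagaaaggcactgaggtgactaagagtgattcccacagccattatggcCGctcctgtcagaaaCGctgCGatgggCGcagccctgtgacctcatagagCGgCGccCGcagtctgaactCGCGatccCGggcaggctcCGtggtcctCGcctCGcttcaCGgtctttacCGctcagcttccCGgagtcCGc
ZNF331: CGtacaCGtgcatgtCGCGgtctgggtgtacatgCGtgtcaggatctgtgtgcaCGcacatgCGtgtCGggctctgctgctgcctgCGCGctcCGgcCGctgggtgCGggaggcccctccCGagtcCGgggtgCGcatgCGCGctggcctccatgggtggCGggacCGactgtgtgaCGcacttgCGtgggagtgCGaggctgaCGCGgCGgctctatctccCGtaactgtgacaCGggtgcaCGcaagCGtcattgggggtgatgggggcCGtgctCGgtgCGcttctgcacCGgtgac
ZNF83: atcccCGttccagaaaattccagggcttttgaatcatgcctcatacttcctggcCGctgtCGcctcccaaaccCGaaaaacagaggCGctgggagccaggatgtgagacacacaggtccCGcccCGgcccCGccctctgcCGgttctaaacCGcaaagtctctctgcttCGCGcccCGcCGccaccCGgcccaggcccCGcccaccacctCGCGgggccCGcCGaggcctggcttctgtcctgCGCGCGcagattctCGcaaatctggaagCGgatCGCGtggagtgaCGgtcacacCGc
ZNF616: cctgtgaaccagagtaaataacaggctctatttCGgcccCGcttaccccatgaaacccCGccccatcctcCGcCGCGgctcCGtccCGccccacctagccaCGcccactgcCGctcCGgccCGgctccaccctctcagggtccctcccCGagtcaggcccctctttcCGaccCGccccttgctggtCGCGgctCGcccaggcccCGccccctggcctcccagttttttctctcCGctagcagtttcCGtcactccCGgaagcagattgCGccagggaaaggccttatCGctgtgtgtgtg
ZNF766: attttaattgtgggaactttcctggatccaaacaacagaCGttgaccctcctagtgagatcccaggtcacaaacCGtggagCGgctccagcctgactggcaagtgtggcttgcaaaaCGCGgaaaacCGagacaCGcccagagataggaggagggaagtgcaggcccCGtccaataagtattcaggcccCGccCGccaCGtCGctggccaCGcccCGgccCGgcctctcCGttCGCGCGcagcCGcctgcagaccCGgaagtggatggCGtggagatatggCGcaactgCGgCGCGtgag

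In these windows the number of CpG sites was 25 in ZNF577, 23 in ZNF614, 34 in ZNF331 and 29 in ZNF83, beside 24 in ZNF616 and 26 in ZNF766. The ratio of CpG sites observed to those that the base content would give was 1.01, 0.83, 0.99, 0.93, 0.80 and 0.91 in the same order. The ratios of reduced and of kept members overlapped. The ZNF331 windows not printed had ratios of 0.67, 0.45, 0.82, 0.41 and 0.41, and the other ZNF83 window had 0.78. Which start these cells use was not tested. Over all members in the table, 20 had at least 1 window, and 26 of 30 windows (86.7%) were CpG-rich, meaning a ratio above 0.6 and more than 50% G and C. Among all 35116 RefSeq windows 46.8% met this. Members near 0 in every group were CpG-rich as well, such as ZNF528 (ratio 1.13) and ZNF468 (0.90). Of 6 short motifs sought on both strands, the GC box GGGCGG was in 18 of the 30 windows (60%, against 45% of all windows). The core of the YY1 motif, ATGGCGGC, was in 3 (10%, against 3% of all windows), those of ZNF577, ZNF615 and ZNF614. The E-box CACGTG was in 2 (6.67%, against 7.26%), those of ZNF577 and ZNF331. The NRF1 motif, in ZNF331, and the ETS motif CCGGAAGT, in ZNF766, were in 1 window each (3.33%, against 1.24% and 4.14%). The CRE TGACGTCA was in none (1.85% of all windows). A match is a run of letters and says nothing of binding.

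**Figure D1:**
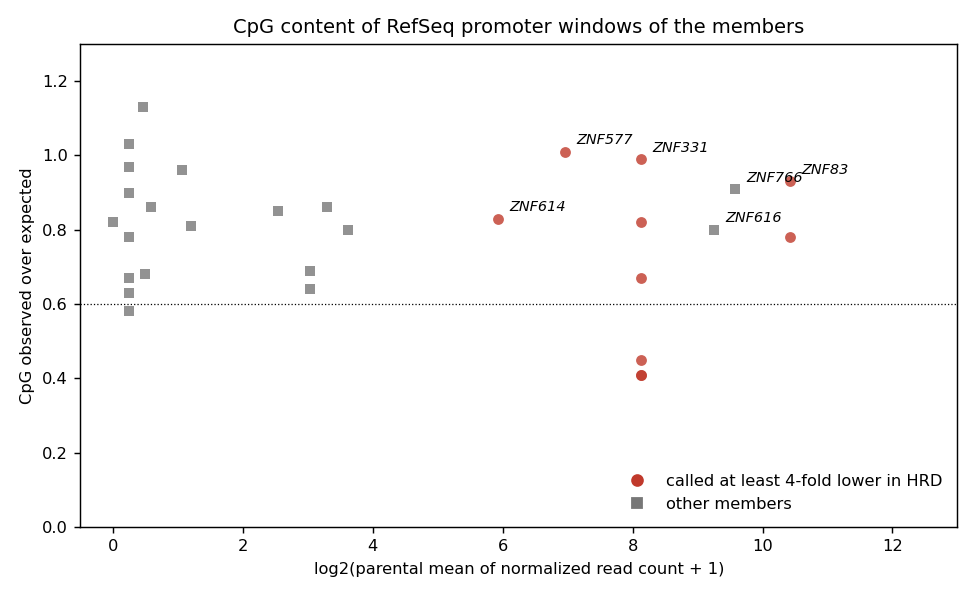
CpG sites observed over expected in each RefSeq promoter window of a member (vertical axis, up to several windows per gene) against the parental level of that gene, as log2 of the mean normalized read count plus 1 (horizontal axis). Red circles are members called at least 4-fold lower in HRD and grey squares all other members; most windows of both kinds lie above the dotted line at 0.6.

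Members of the cluster fell into 3 classes by level. In 8 of the 24 the parental mean was at least 50 normalized reads. In 11 no group reached a mean of 2, with 1 to 7 reads in all 9 libraries together: ZNF613, ZNF615, ZNF432, ZNF841, ZNF836, ZNF528, ZNF28, ZNF468, ZNF347, ZNF525 and ZNF813. The other 5 (ZNF350, ZNF610, ZNF880, ZNF320 and ZNF765) lay between. Per kilobase of exon in GENCODE v29, an annotation other than the one counted, ZNF480 had the highest mean level, 441 normalized reads in HRD and 445 in parental cells. ZNF616 had 116 and 125 per kilobase in HRD and parental cells, and ZNF766 had 81.5 and 104. ZNF83 stood at 40.7 in HRD and 171 in parental cells, and ZNF331 at 2.29 and 31.3. ZNF649, ZNF577 and ZNF614 had 37.2, 16.5 and 10.3 per kilobase in parental cells.

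**Figure D2:**
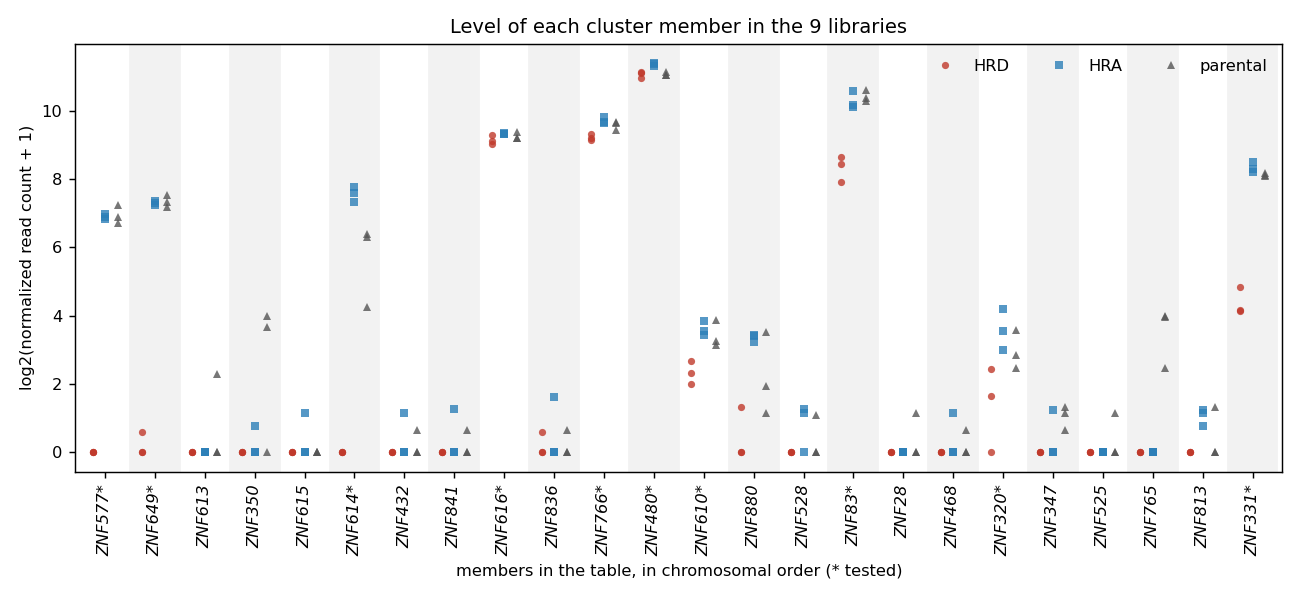
log2 of the normalized read count plus 1 (vertical axis) of each of the 24 members in the table, in chromosomal order, with a point for each of 3 libraries of HRD (red circles), HRA (blue squares) and parental cells (grey triangles). HRD points lie at or next to 0 for ZNF577, ZNF649 and ZNF614, below the others for ZNF83 and ZNF331, and level with parental points for ZNF616 and ZNF480.

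Comparison of HRD with parental cells asks what accompanies daunorubicin resistance. The first 3 expressed members, at the centromere-side end of the cluster, had almost no transcripts in HRD. ZNF577 had 0, 0 and 0 normalized reads in the HRD libraries, against 118, 103 and 151 in the parental libraries. No HRD library had a read of it, which puts ZNF577 at least 146-fold lower in HRD than in parental cells, counting a floor of 3 reads over the 3 HRD libraries. ZNF649, whose protein is described as a repressor of serum response and AP-1 driven transcription, had 0.496, 0 and 0 in HRD, against 144, 158 and 184 in parental libraries. Those values are 1 read in HRD and 509 reads in parental cells, a depth-scaled ratio of 564 with an exact 95% counting interval of 101 to 22300. ZNF614 had 0, 0 and 0 in HRD, against 83.1, 78.5 and 18.0 in parental libraries, and was at least 82.7-fold lower. The groups did not overlap for any of these genes, and parental replicate 3 was the low library for ZNF614. In bulk RNA, fewer cells with a transcript and less of it in each cell cannot be told apart.

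Further along, ZNF83 and ZNF331 were reduced but kept transcripts. ZNF83 stood at 345, 238 and 398 normalized reads in HRD, against 1244, 1324 and 1548 in parental libraries, which is 4.26-fold lower (log2 fold change −2.09 ± 0.18, SE). ZNF331, an imprinted gene at the telomere-side end, stood at 16.9, 16.6 and 27.8 in HRD, against 291, 277 and 271 in parental libraries. This was a 13.5-fold lower level (−3.75 ± 0.20). All HRD libraries were below all parental libraries for both genes. Folds here are on the scale of log2(value + 1), which understates changes of low values.

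Between these, ZNF616, ZNF766 and ZNF480 had most or all of their parental level in HRD. ZNF616 stood at 621, 557 and 520 in HRD, against 589, 664 and 583 in parental libraries (−0.11 ± 0.10). ZNF480, the most abundant member per kilobase, stood at 2248, 1972 and 2180 in HRD, against 2107, 2129 and 2224 in parental libraries (−0.02 ± 0.08). The HRD and parental values of both genes overlapped. ZNF766 lies between them and stood at 588, 639 and 566 in HRD, against 695, 789 and 809 in parental libraries (−0.35 ± 0.10), a 1.28-fold lower level without overlap. Its call was lost when the 2 groups were fitted alone and when HRD replicate 1 or 3 or parental replicate 2 or 3 was left out. Reduced and kept members occurred on both strands: ZNF577, ZNF649, ZNF614, ZNF83 and the kept ZNF616 are on the minus strand, ZNF331 and the kept ZNF766 and ZNF480 on the plus strand.

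Of the 5 members of intermediate level, ZNF610 and ZNF320 were tested and the other 3 were under the filter on low values. ZNF765 had 0 reads in HRD and 41 in parental cells, at least 15.1-fold lower. ZNF350, known as ZBRK1, a BRCA1-binding repressor of GADD45A, had 0 reads in HRD and 33 in parental cells, at least 12.2-fold lower. Parental replicate 3 had 0 reads of it too. ZNF880 had 3 reads in HRD and 13 in parental cells, a depth-scaled ratio of 4.80. Its counting interval, which leaves out the spread of replicates, ran from 1.32 to 26.3. The ZNF880 values overlapped, at 1.49, 0 and 0 normalized reads in HRD and 2.81, 1.23 and 10.5 in parental libraries. ZNF610 stood at 3.97, 3.01 and 5.34 normalized reads in HRD, against 7.86, 8.59 and 13.5 in parental libraries (−1.09 ± 0.39), and ZNF320 at 4.46, 0 and 2.14, against 6.17, 11.0 and 4.50 (−1.60 ± 0.64). The last 2 were not called, though without HRD replicate 1 ZNF320 was, at −2.14. Without HRD replicate 2 its log2 fold change was −0.91. Of the 50-base windows of the longest ZNF320 transcript in GENCODE v29, 99.5% also occur in another gene, mostly ZNF468, so the separate values of ZNF320 and ZNF468 are uncertain. For the 8 members above 50 in parental cells this share ran from 0% to 3.24%, the highest being that of ZNF649. ZNF610 and ZNF880 lie next to each other on the plus strand, and this share was 0.748% and 0.367% for them. Whether they overlap in the annotation counted is not known. ZNF649 and ZNF350 have antisense partners whose reads cannot be told apart without the strand setting of the counting.

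Genes were tested with limma over 12569 genes, those that reached 10 normalized reads in 3 or more libraries, and called where the Benjamini-Hochberg adjusted p was under 0.05. The filter kept 10 of the 24 members. Of these, 6 were called lower in HRD than in parental cells, where 12.0% of all tested genes were, and 5 were called at least 4-fold lower, where 0.827% were. None was called higher (10.7% of all tested genes). The edgeR and DESeq2 tests on recovered reads also called 6 lower and 0 higher. The median log2 fold change of the 10 was −1.84, against 0.01 over all tested genes. These counts rest on the contrast behind the choice of the cluster and on members that passed the filter through the groups where they are high. The calls of ZNF577, ZNF649, ZNF614, ZNF83 and ZNF331 held in all 18 alternative fits, while the ZNF766 call held in 13.

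**Figure D3:**
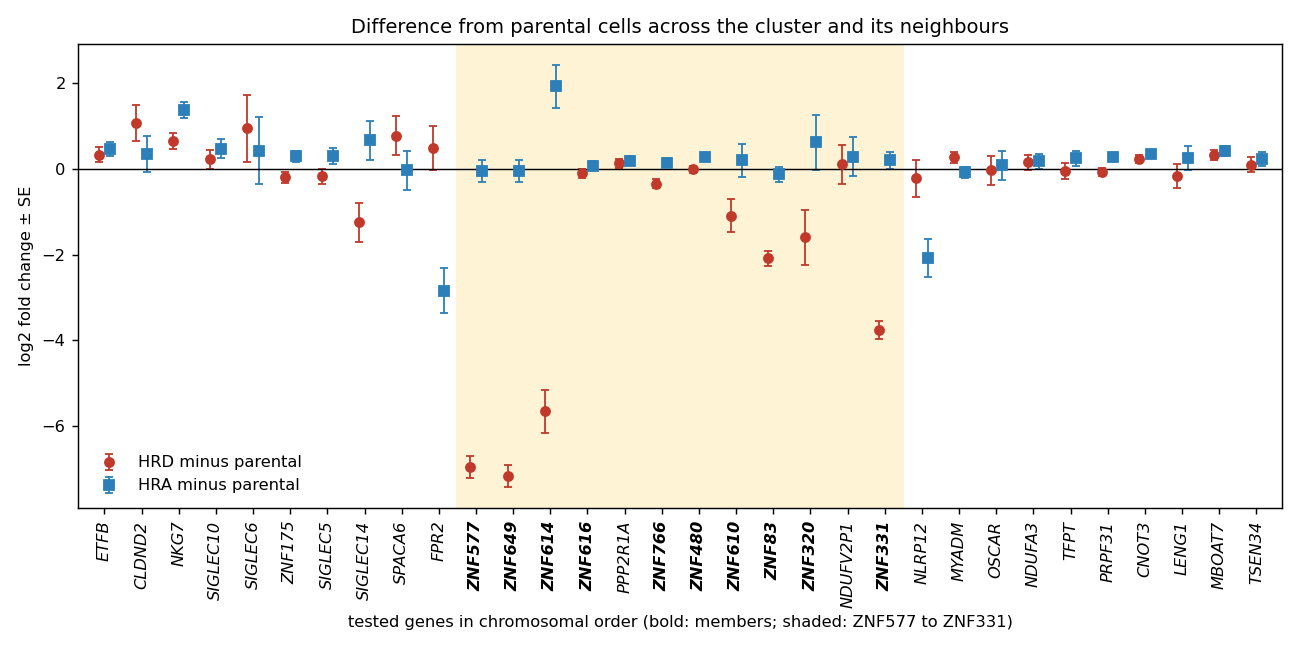
Log2 fold change with its standard error (vertical axis) of tested genes in chromosomal order: the 10 nearest protein-coding genes before the cluster, the cluster with the genes between its members (shaded, members in bold) and the 10 after it. Red circles (HRD minus parental) drop to between −5.65 and −7.15 at the first 3 members and return to near 0 at ZNF616, PPP2R1A, ZNF766 and ZNF480, while blue squares (HRA minus parental) lie between −0.14 and 0.61 at the members other than ZNF614.

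Cytarabine-resistant HRA cells had transcripts of all the members described as near 0 or reduced in HRD that exceed 50 in parental cells. In the HRA libraries ZNF577 stood at 117, 112 and 124 normalized reads, against 118, 103 and 151 in parental libraries (−0.06 ± 0.26). ZNF649 stood at 164, 156 and 149 in HRA (−0.05 ± 0.26). ZNF83 stood at 1107, 1142 and 1518 (−0.14 ± 0.18) and ZNF331 at 310, 294 and 357 (0.19 ± 0.20). ZNF577, ZNF649 and ZNF83 overlapped with the parental libraries, and for ZNF331 all HRA libraries lay slightly above them without a call. ZNF614 was called higher: it had 192, 161 and 217 in HRA, against 83.1, 78.5 and 18.0 in parental libraries (1.92 ± 0.49). Without parental replicate 3, its low library, the log2 fold change was 1.21, and the call was lost without HRA replicate 1, 2 or 3. ZNF480 was also called higher, at 2627, 2539 and 2674 in HRA, against 2107, 2129 and 2224 in parental libraries (0.28 ± 0.08). Leaving out parental replicate 1 or 2 or HRA replicate 1, 2 or 3 ended this call. ZNF616 (0.07 ± 0.10), ZNF766 (0.14 ± 0.10), ZNF610 (0.19 ± 0.39) and ZNF320 (0.61 ± 0.64) were not called.

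So 2 of 10 tested members were called higher in HRA, where 9.13% of all tested genes were, and 0 lower, where 6.10% were. The median of the 10 was 0.16. A fit blocked on replicate number also called 2 members higher and 0 lower. Of all 12569 tested genes it called 1572 higher and 1202 lower. The 626 tested protein-coding genes of chromosome 19 that are not ZNF genes had medians of 0.06 (HRD) and 0.33 (HRA). In HRA 135 of these 626 were called higher and 8 lower, so calls of higher genes were also frequent outside the cluster. The low members ZNF765 and ZNF350 were lower in HRA too. ZNF765 had 0 reads, against 41 in parental cells, and was at least 12.5-fold lower. ZNF350 had 1 read, against 33, a depth-scaled ratio of 30.3 whose counting interval ran from 5.07 to 1230. Their parental reads were uneven, with 0 normalized reads of ZNF350 in parental replicate 3 beside 11.8 and 14.7 in replicates 1 and 2. ZNF765 had 4.50 in parental replicate 3 beside 14.6 and 14.7. ZNF880 ran the other way, with 10.5 in parental replicate 3 beside 2.81 and 1.23. In the HRA libraries ZNF880 had 8.38, 9.47 and 9.75, ZNF610 had 9.77, 10.8 and 13.4, and ZNF320 had 6.98, 10.8 and 17.1, each overlapping with the parental libraries.

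HRD and HRA cells were also compared directly. This comparison shares its libraries with those above, so its values are not separate evidence. ZNF577 was at least 142-fold and ZNF614 at least 230-fold lower in HRD than in HRA. For ZNF649 the ratio was 570, with a counting interval of 102 to 22600, from 1 read in HRD and 472 in HRA. For ZNF331 the log2 fold change was −3.94 ± 0.20 and for ZNF83 −1.96 ± 0.18. The kept members differed by −0.49 ± 0.10 (ZNF766), −0.29 ± 0.08 (ZNF480) and −0.19 ± 0.10 (ZNF616), and for each of them all HRD libraries lay below all HRA libraries. Of 10 tested members, 9 were called lower in HRD, where 16.2% of all tested genes were, and 0 higher, where 13.9% were. ZNF616 was the member not called. Called at least 4-fold lower were 5 members, where 1.10% of all tested genes were: ZNF577, ZNF649, ZNF614, ZNF320 and ZNF331. Of 626 other tested protein-coding genes of chromosome 19, 153 (24.4%) were called lower, with a median of −0.27. Of tested ZNF genes it was 3 of 7 from ZNF506 to ZNF254 and 13 of 18 from ZNF565 to ZNF573. From ZNF471 to MZF1 it was 23 of 37. The call of ZNF480 was lost without HRD replicate 2 or HRA replicate 1 or 3. That of ZNF610 (−1.29 ± 0.39) was lost without HRD replicate 1 or 2, without HRA replicate 1, 2 or 3 and without the filter on low values. That of ZNF320 (−2.21 ± 0.64) was lost without HRD replicate 2 or HRA replicate 2 or 3, its value being −1.53 without HRD replicate 2. DESeq2 called neither ZNF610 nor ZNF320, and so 7 members lower where limma and edgeR called 9.

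Genes that the choice of the cluster did not use were tested in the same fit. Between the members lie 10 other genes with a row, of which PPP2R1A, the scaffold subunit of protein phosphatase 2A, and the pseudogene NDUFV2P1 were tested. Of the other 8, each with at most 10 reads in any group, ZNF649-AS1, antisense to ZNF649, had 0 reads in HRD, 10 in HRA and 9 in parental cells. PPP2R1A lies between ZNF836 and ZNF766 and stood at 3837 ± 367 normalized reads in HRD, 4004 ± 112 in HRA and 3545 ± 537 in parental cells (SD, n = 3). Neither gene was called in any comparison. For PPP2R1A the limma adjusted p was 0.478 for HRD and 0.277 for HRA, each against parental cells, and for NDUFV2P1 it was 0.907 and 0.719. Of the 10 nearest tested protein-coding genes before the cluster, 1 rose in HRD and 0 fell. It was NKG7, a granule gene of cytotoxic and myeloid cells (0.64 ± 0.18, limma adjusted p = 0.0276, range over alternatives 0.00151 to 0.101). Its call was lost without HRD replicate 2 or 3 or parental replicate 1 or 3. Of the 10 after it, none was called in HRD by limma. Over all 22 tested genes between and beside the members, 1 rose and 0 fell in HRD, which DESeq2 gave as 1 and 1 and a fit blocked on replicate number as 3 and 1. The gene that fell in those fits was SIGLEC14, a myeloid lectin receptor (−1.25 with limma, adjusted p = 0.0697).

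In HRA 3 of the 22 rose and 2 fell. Before the cluster NKG7 rose (1.37 ± 0.18, limma adjusted p = 0.000886) and FPR2, a formyl peptide receptor of phagocytes, fell (−2.84 ± 0.52, limma adjusted p = 0.0046). After it, the inflammasome regulator NLRP12 fell, at 10.5, 9.47 and 3.65 normalized reads in the HRA libraries, against 21.9, 38.0 and 46.5 in the parental libraries (−2.08 ± 0.43, limma adjusted p = 0.00891, range 0.00143 to 0.0363). CNOT3, a subunit of the deadenylase complex, and MBOAT7, a lysophospholipid acyltransferase, rose by 0.34 ± 0.09 and 0.41 ± 0.12. Their limma adjusted p were 0.0321 and 0.0433 (ranges 0.0152 to 0.109 and 0.0169 to 0.156), and both calls were lost on leaving out HRA replicate 1, 2 or 3. CNOT3 also lost its call without parental replicate 2 or 3, and MBOAT7 without parental replicate 1, 2 or 3, without HRD replicate 3 or without the filter on low values. With the replicate number as a block, which applies to HRA and parental cells because their same-numbered libraries deviated together, 6 of the 22 tested non-members rose and 2 fell, beside 3 and 2 without it. Between HRD and HRA, 2 of the 22 were called higher in HRD, FPR2 and NLRP12. Called lower in HRD were 4: NKG7 (−0.73 ± 0.18), SIGLEC14 (−1.91 ± 0.45), ZNF175, itself a zinc finger gene (−0.49 ± 0.12), and the splicing factor gene PRPF31 (−0.34 ± 0.09). The ZNF175 call was lost without HRA replicate 2, and the PRPF31 call without HRD replicate 3 or HRA replicate 1.

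Genes of the proteins that act with KRAB zinc fingers were measured too. TRIM28 averaged 9661 ± 418 normalized reads in HRD, 10705 ± 520 in HRA and 9497 ± 1640 in parental cells, with limma adjusted p of 0.848 for HRD and 0.275 for HRA against parental cells. SETDB1 averaged 2657 ± 202 in HRD, 2265 ± 73.7 in HRA and 2593 ± 214 in parental cells (limma adjusted p = 0.812 and 0.156). Without parental replicate 1 TRIM28 was called higher in HRA (0.32, limma adjusted p = 0.0372). Of 24 such partner genes, all tested, 3 rose and 4 fell in HRD, with a median of 0.02, and 10.7% of all tested genes rose and 12.0% fell, so the list's share of calls was near that of all genes. The heterochromatin protein gene CBX5 rose (0.51 ± 0.12, limma adjusted p = 0.00989), as did the remodeller and deacetylase genes CHD3 (0.31 ± 0.10) and HDAC2 (0.28 ± 0.07). Among those that fell were the related CBX1 (−0.45 ± 0.09, limma adjusted p = 0.00478), PPHLN1, a subunit of the HUSH silencing complex (−0.36 ± 0.07), and the methyltransferase gene EHMT1 (−0.38 ± 0.09). The call of CHD3 was lost without HRD replicate 1, 2 or 3, without HRA replicate 1, 2 or 3 or without parental replicate 1. It was also lost without the filter on low values and in a fit of the 2 groups alone. That of HDAC2 was lost without parental replicate 2 or in a fit of the 2 groups alone. In HRA 1 partner rose, ZNF274 (0.45 ± 0.10), and 1 fell, SMARCAD1 (−0.28 ± 0.08). The ZNF274 call was lost without HRA replicate 2. The SMARCAD1 call was lost without the filter on low values and on leaving out any single library but HRD replicate 1.

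Among 8 tested genes of DNA methylation and demethylation, 1 rose and 2 fell in HRD, numbers too small to set apart from the 10.7% higher and 12.0% lower of all tested genes. DNMT3A, a de novo methyltransferase, stood at 194, 199 and 190 normalized reads in HRD, against 100, 119 and 118 in parental libraries (0.79 ± 0.15, limma adjusted p = 0.00398). HELLS, a remodeller needed for methylation of repeats, averaged 1690 ± 140 in HRD and 2503 ± 134 in parental cells (−0.57 ± 0.08, limma adjusted p = 6.09e-04). DNMT3B fell (−0.45 ± 0.14, adjusted p = 0.0439, range over alternatives up to 0.144), a call lost on leaving out HRD replicate 1, 2 or 3, HRA replicate 1 or 3 or parental replicate 2 or 3. The DNMT3B call was also lost without the filter on low values and in a fit of the 2 groups alone. The maintenance enzyme gene DNMT1 was not called in HRD (−0.10 ± 0.07, adjusted p = 0.341). In HRA DNMT1 rose (0.28 ± 0.07, adjusted p = 0.0183) and DNMT3B (−0.58 ± 0.14, adjusted p = 0.0214) and TET3 (−0.31 ± 0.10, adjusted p = 0.0478) fell by limma. The first was lost without HRA replicate 1, 2 or 3 or parental replicate 2, and the second without HRA replicate 1 or 3 or parental replicate 2 or 3. The TET3 call was lost on leaving out any single library but HRD replicate 1 or 3. It was also lost without the filter on low values, with the other scaling and in edgeR. The part of these genes in the levels of the cluster was not tested.

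Other runs of zinc finger genes on chromosome 19 were set beside the cluster, by counts and medians only. In HRD, 4 of 7 tested ZNF genes from ZNF506 to ZNF254 were called lower (median −1.73), 9 of 18 from ZNF565 to ZNF573 (median −0.61) and 19 of 37 from ZNF471 to MZF1 (median −0.40). Elsewhere on chromosome 19 it was 19 of 68 (median −0.18), and on other chromosomes 38 of 193 (median −0.06). Of other tested protein-coding genes of chromosome 19, 33 of 626 were called lower. In HRA the 3 runs had 3, 0 and 3 genes called lower, where 6.10% of all tested genes were, and medians of −0.20, 0.27 and 0.07. A definition made after the values were seen took genes that averaged 50 or more in parental cells and had at most 3 reads in the HRD libraries. Of the 10481 genes of that parental level in the whole table, 19 met it (0.181%). Of these, 11 were ZNF genes, 10 of them on chromosome 19 and 3 of them in the cluster, and no gene of chromosome 19 outside the ZNF family was among them. The cluster thus gave 3 of its 8 members of that level, the run from ZNF565 to ZNF573 4 of 16, that from ZNF506 to ZNF254 2 of 6, and that from ZNF471 to MZF1 1 of 32. ZNF genes elsewhere on chromosome 19 gave 0 of 52, and those of other chromosomes 1 of 181. In HRA no gene of the table met this definition. ZNF431 and ZNF736, which met it in HRD, came close in HRA, with 6 and 8 reads against 348 and 303 in parental cells. The other ZNF genes that met it in HRD had 212 to 1595 reads in HRA. ZNF430, outside the definition, had a log2 fold change of −5.0 from parental cells in both HRD and HRA.

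**Figure D4:**
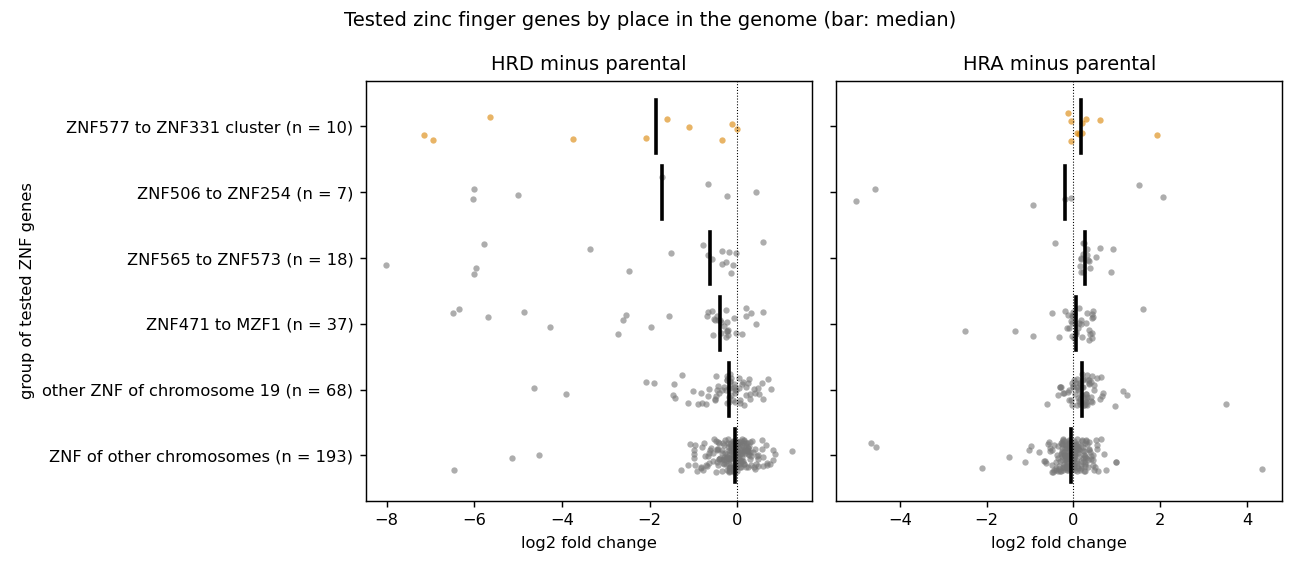
Log2 fold change (horizontal axis) of tested ZNF genes in the cluster (orange) and in 5 other groups by place in the genome (grey), for HRD minus parental (left) and HRA minus parental (right). Each point is a gene, its height within a row is arbitrary, and bars are medians; in HRD the points of all 4 named runs reach below −5, as do those of ZNF genes of other chromosomes (lowest −6.46), and the cluster's median is −1.84.

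The levels of the members can also be given as sums per library, which restate the values above and are no further support. Normalized reads summed over the 24 members were 3830, 3425 and 3700 in HRD, 6004, 5993 and 6524 in HRA and 5321, 5576 and 5826 in parental libraries. ZNF480 made up the greater share of the HRD sums, and without it the sums were 1582, 1454 and 1520 in HRD, 3378, 3454 and 3850 in HRA and 3215, 3448 and 3602 in parental libraries. ZNF83 alone averaged 327 ± 81.3 in HRD, 1256 ± 228 in HRA and 1372 ± 158 in parental cells, and so makes up much of that difference. Members without a single read numbered 14, 18 and 17 in HRD, 8, 11 and 8 in HRA and 4, 8 and 10 in parental libraries, numbers that also move with library depth. In HRD 5 members had a value of at least 10 in each library, namely ZNF616, ZNF766, ZNF480, ZNF83 and ZNF331, against 8 to 10 in HRA and 10 or 11 in parental libraries.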

How the data were processed

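Polyadenylated RNA of 3 HRD, 3 HRA and 3 parental HL-60 cultures was sequenced from stranded libraries, per the labels' protocols. The submitters' processing notes list HTSeq 0.11.1, Cufflinks 2.2.1, DESeq2, Picard, TopHat2 2.1.1, Bowtie2 2.3.5.1 and hg19; roles, annotation and strand setting are not given in the sources used here. The deposited signal is the number of reads on each gene after scaling by 1 size factor per library. All values were whole multiples of 1 constant per library (100%, tolerance 0.001 reads), so whole reads were recovered. A value of 3 reads is 1.49 to 4.52 normalized reads. Counting intervals and floors cover counting error only, and replicates varied 14.4 to 56.7 times more than counting error (chi-square per degree of freedom).

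All 9 libraries were fitted together on log2(value + 1) with limma 3.58.1 under R 4.3.3, letting the variance follow the mean level, over 12569 genes, and p-values were adjusted over all of them. An exact permutation test of 3 against 3 cannot go below 0.1, so it was not used. Alternatives were edgeR 4.0.16 and DESeq2 1.42.0 on recovered reads, which called 1480 and 1652 genes lower and 1372 and 1492 higher in HRD than in parental cells, other filters, pseudocounts and scaling, a replicate block, and leaving out each library. Deviations of same-numbered HRA and parental libraries correlated at 0.22, 0.38 and 0.14, so the block applies there. For HRD and parental libraries they were −0.08, 0.26 and 0.29. Members and lists were chosen with earlier results of these data known. Values per library are printed for members with a 4-fold difference between groups and a mean of at least 50, for the 3 with the smallest changes and for the end members, and for further members where a sentence turns on them. Gene order and promoters came from RefSeq (GRCh38.p14, 19644 genes matched), and the counts were made on another build, so the promoter coordinates are those of RefSeq only. Protein sequences were not used here. Some genes of the lists are not reported here. The method was tested on simulated data.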

Additional observations from a re-analysis of the deposited data

How the results depend on the processing

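Values and counts compared under 18 other settings numbered 2419. Of these, 2225 were scored as the same, 115 lost the call, 22 gained it, 57 moved and 0 reversed. A called value was the same if it kept its direction and its side of the threshold. An uncalled value was the same if it shifted within the spread of the libraries. A count was the same within a set ratio, which 6 beside 9 members met. Reversal was scored only for values called in at least 1 of the fits compared, so sign changes of uncalled values are not included. Members called lower in HRD than in parental cells numbered 5 to 7 over all settings (6 as reported), and lower in HRD than in HRA 6 to 9 (9 as reported). Members called lower in HRA than in parental cells were 0, and 1 without the filter on low values; those called higher were 2, and 0 to 2 when 1 library was left out. The fitted log2 fold change of members with 0 reads in HRD moves with the pseudocount and the tool: for ZNF614 against parental cells it was −3.47 with a pseudocount of 5 and −9.09 in edgeR. That of ZNF320 between HRD and HRA was −1.21 with a pseudocount of 5. For genes between and beside the members, 1 was called lower in HRD without the filter, with the replicate block and in DESeq2, and 0 to 1 when 1 library was left out, beside 0 as reported. Called higher there were 3 with the replicate block and 0 to 4 when 1 library was left out. In HRA 6 were called higher with the replicate block and 1 to 4 with 1 library left out, and 0 were called lower with a filter at 50, where FPR2 and NLRP12 were not tested. Between HRD and HRA 0 were called higher with that filter, for the same reason. Partner and DNA methylation genes called higher in HRD were 2 when only the 2 groups compared were fitted. In HRA those called lower were 1 without the filter and 0 to 5 with 1 library left out, and those called higher 0 to 4. Between HRD and HRA those called higher were 4 to 8 with 1 library left out. The replicate block left the members' counts at 6, 2 and 9 in the 3 comparisons, and raised the count of all genes called lower in HRA to 1202, beside 767. Where no cause is named, the cause was not tested. Depth limits the low members: 3 reads are worth up to 4.52 normalized reads.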
